A study of Mus musculus with 23 samples.

Results

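Macrophages sorted from the bone marrow of 7-day-old mouse pups were compared between the vavCre genotype and wild type (WT). The comparison rests on the 6 libraries labelled bone marrow macrophage at day 7, 3 of vavCre and 3 of WT, out of 23 libraries in 8 groups in the series. Both groups are C57BL/6, and each library was made from 1000 cells sorted by flow cytometry, with oligo-dT priming and a Nextera XT library kit. Cre driven by the Vav promoter acts in blood-forming cells and their progeny, macrophages included. The labels give the genotype only as vavCre or WT and do not name a floxed allele; the series is about Pparg and describes its subject as the scarce Pparg-deficient cells that still resemble red pulp macrophages (RPM) and erythroblastic island macrophages (EIM). The cells compared are those the sorting gate found in each genotype. Libraries from spleen macrophages of the same age are used beside them: RPM_d7_vavCre and RPM_d7_WT (3 each), and RPM_d7_Spic_KO and RPM_d7_Spic_WT (2 and 3), all C57BL/6 and sorted in the same way. No label says that the replicates are separate animals, so p-values measure the spread between these samples, which may be technical.

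Erythroblastic island macrophages sit in the marrow with a ring of maturing erythroblasts attached to them. They hold the erythroblasts through adhesion molecules such as VCAM1, supply iron, and engulf and digest the nuclei that red cell precursors expel. PPARγ, encoded by Pparg, is a fatty acid-activated nuclear receptor that pairs with RXR, and SpiC, encoded by Spic, is an ETS factor needed for red pulp macrophages; both are known regulators of heme- and lipid-handling macrophages.

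The comparison asks what differs in the marrow cells, given that Spic RNA barely does. Pparg (GRCm38 chromosome 6, 115360951 to 115490399) had 2972, 2088 and 1813 normalised reads in vavCre libraries, against 1703, 1601 and 1605 in WT libraries. The group means were 2291 ± 606 in vavCre and 1636 ± 57.8 in WT (SD, n = 3 each), a log2 change of 0.45 (SE 0.20) that missed the threshold (limma, Benjamini-Hochberg adjusted p = 0.193). Reads were deposited per gene and cannot show whether an exon is missing, so the Pparg value is no check of a deletion. Spic (chromosome 10, 88674772 to 88685015) had 4934, 5424 and 6215 normalised reads in vavCre, against 4985, 6704 and 6181 in WT, and the ranges overlap. Its log2 change was -0.10 (SE 0.12, adjusted p = 0.705). Spi1, which encodes the related ETS factor PU.1, was not called either (1443 ± 56.8 normalised reads in vavCre and 1205 ± 284 in WT, SD, n = 3 each, log2 change 0.29, adjusted p = 0.44).

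Values are the deposited normalised read counts, which compare between libraries for 1 gene but are not scaled by gene length, so levels are not compared between genes. The vavCre libraries hold 4.59, 7.88 and 4.26 M reads and the WT libraries 4.58, 10.8 and 8.74 M. Both groups carry the markers of macrophages: Csf1r, Adgre1 (F4/80), Cd68, Lyz2, Ctss, Tyrobp and Aif1 lay between 5993 and 56800 normalised reads in all 6 libraries. Of the 19 surface genes of the island type, 10 fell, Vcam1, Itgad, Siglec1 and Cd163 among them, and Spic was not called. The 12 macrophage markers made up 1.48 to 1.62% of the signal in vavCre and 1.11 to 1.18% in WT; Csf1r, Lyz2 and Adgre1 rose, and Fcgr1 and Mertk fell (2 rose and 1 fell without WT replicate 1, WT replicate 3 or vavCre replicate 2). Pearson correlations of log2 values between libraries were 0.910 to 0.934 within a group and 0.886 to 0.913 between groups. These are bulk samples, in which fewer cells of a type and less RNA per cell cannot be told apart.

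Some of the genes with the clearest differences are shown with the promoter sequence that RefSeq gives them in GRCm38.p6, from 250 bases before the transcription start to 50 after it, written 5′ to 3′ on the strand of the gene. They were chosen after their values were seen: Slco2b1 is the called fall with the smallest p, Cd36 a PPARγ target that fell, and Cd209f and Cd209g a neighbouring pair of lectin genes that rose together. Capitals mark letters that match 1 of 4 short motifs: AGGTCA (the nuclear receptor half-site), the direct repeat of that half-site with 1 base between (DR1, bound by PPAR-RXR pairs), GAGGAAGT (the PU box read by PU.1 and SpiC) and TGANTCA (the AP-1 site). Both strands were searched, and a half-site match may lie inside a DR1.

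Slco2b1 (chr7:99711291-99711590, minus strand): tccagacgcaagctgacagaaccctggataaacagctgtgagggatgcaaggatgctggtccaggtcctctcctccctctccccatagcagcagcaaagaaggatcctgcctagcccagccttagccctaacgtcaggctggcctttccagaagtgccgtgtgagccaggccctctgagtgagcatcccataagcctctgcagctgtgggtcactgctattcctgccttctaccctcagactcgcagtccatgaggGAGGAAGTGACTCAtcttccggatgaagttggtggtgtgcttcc

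Cd36 (chr5:17835847-17836146, minus strand): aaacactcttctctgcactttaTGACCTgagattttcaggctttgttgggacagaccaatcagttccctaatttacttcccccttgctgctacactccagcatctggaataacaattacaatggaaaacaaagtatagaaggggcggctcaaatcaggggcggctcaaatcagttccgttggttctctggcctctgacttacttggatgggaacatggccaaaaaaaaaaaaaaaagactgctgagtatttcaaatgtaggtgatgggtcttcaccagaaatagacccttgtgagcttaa

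Cd209f (chr8:4105715-4106014, minus strand): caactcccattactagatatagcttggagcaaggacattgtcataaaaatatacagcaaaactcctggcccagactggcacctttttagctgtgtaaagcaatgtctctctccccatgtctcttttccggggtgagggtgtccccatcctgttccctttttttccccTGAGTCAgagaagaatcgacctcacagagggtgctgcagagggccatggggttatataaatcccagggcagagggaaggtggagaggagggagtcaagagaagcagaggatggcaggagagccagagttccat

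Cd209g (chr8:4134486-4134785, plus strand): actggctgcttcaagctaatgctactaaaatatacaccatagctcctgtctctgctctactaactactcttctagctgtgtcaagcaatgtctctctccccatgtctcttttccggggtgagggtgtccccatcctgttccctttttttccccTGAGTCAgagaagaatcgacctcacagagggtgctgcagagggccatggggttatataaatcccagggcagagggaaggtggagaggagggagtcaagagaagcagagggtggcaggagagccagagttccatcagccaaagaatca

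The first Slco2b1 promoter holds a PU box and an AP-1 site that overlap by a base, the Cd36 promoter shown holds 1 half-site, and both Cd209 promoters hold 1 AP-1 site. Slco2b1 has 2 further RefSeq promoters, with no match. The Cd209f and Cd209g promoters are alike at 242 of 260 aligned bases (93.1%), and the reads of these paralogs may be split between them by the counting. The shares of promoters with each motif are given without a test. The DR1 was in 0 of 396 promoters of genes that rose and in 0 of 504 of genes that fell, and in 4 of 11116 promoters of all genes tested (0.0360%). The half-site was in 15.9% of risen, 14.7% of fallen and 15.5% of all tested genes' promoters. The PU box was in 4.55% of risen, 4.56% of fallen and 3.78% of all tested genes' promoters. The AP-1 site was in 9.09%, 6.55% and 6.54% of the same sets. Over all 32851 promoters of the RefSeq table the DR1, half-site, PU box and AP-1 site were in 0.0396%, 16.3%, 3.20% and 7.81%. A match is a string of letters and not a shown binding site, and enhancers lie outside these windows.

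Of 15130 genes tested, 516 rose and 666 fell in vavCre marrow macrophages (3.41% and 4.40%; 7.81% together). Large changes were more often falls: 295 genes fell and 96 rose at least 4-fold (log2 change of 2), and 33 fell and 8 rose at least 32-fold (log2 change of 5). Among highly expressed genes the balance was the other way. Of the 273 genes with at least 5000 normalised reads in the higher group, 71 rose (26.0%) and 31 fell (11.4%), whereas of the 3270 genes between 10 and 100 reads 0.826% rose and 4.31% fell. The vavCre libraries had reads for 12506 to 13159 genes and the WT libraries for 13285 to 13696. The part of read depth in the lean of low genes and large changes to falls was not tested. The risen genes made up 18.9 to 19.7% of the signal in vavCre libraries and 11.1 to 11.3% in WT libraries, and the fallen genes 4.37 to 4.96% in vavCre and 10.7 to 11.8% in WT. The 3 vavCre libraries did not overlap with the 3 WT libraries for 1156 of the 1182 called genes, and for 19.8% of all genes tested. With only the 6 marrow libraries in the fit, 584 genes were called (287 rose, 297 fell) in place of 1182. Of the 1182, 573 were called whichever of the 6 libraries was left out.

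**Figure D1:**
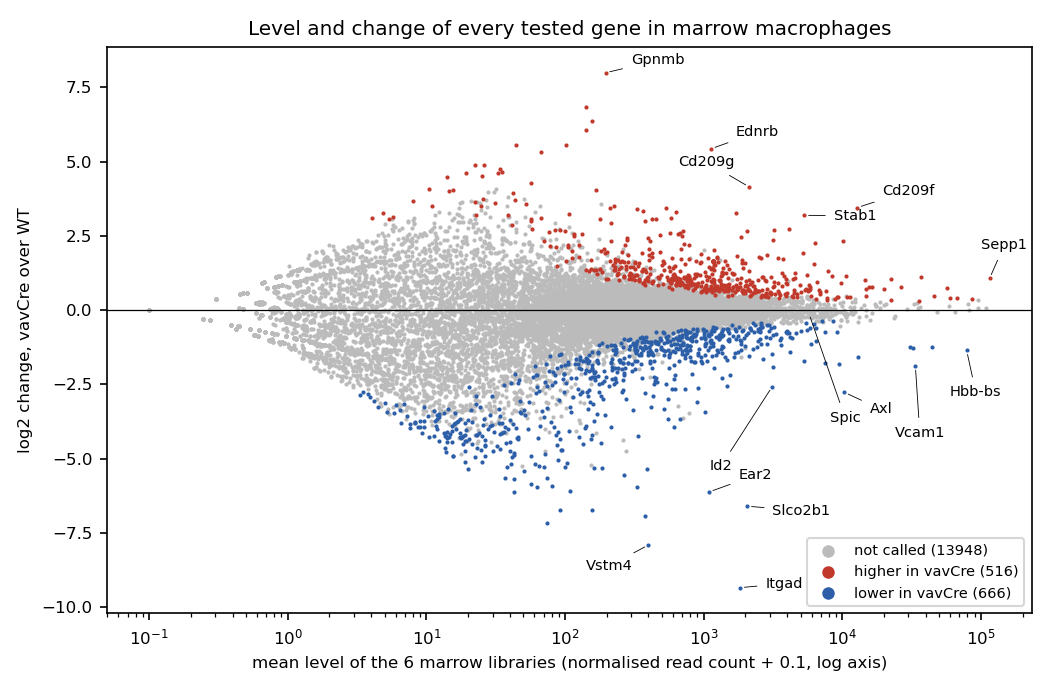
Each point is 1 of the 15130 genes tested in marrow macrophages; the x axis (log scale) is the mean level over the 6 libraries in normalised reads (plus 0.1) and the y axis the log2 change, vavCre over WT. Of them 516 rose and 666 fell; the deepest falls reach past a log2 change of -9 (Itgad), and Spic lies among the genes that were not called, near 0.

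The genes of the island surface were the first group examined, since these cells are known by them. Of 19 such genes, 10 fell and 2 rose, with a median log2 change of -0.71 against -0.04 over all genes tested. Here and for the lists below, the shares over all genes tested were 3.41% risen and 4.40% fallen, and these shares vary with level. In spleen macrophages of the same genotypes 8 of these 19 fell and 0 rose, with a median of -0.78. The list counts Trf, whose product is secreted. Itgad (chromosome 7, 128154376 to 128223816), the integrin αD that pairs with CD18 on red pulp and island macrophages, had 0, 8.484 and 18.11 normalised reads in vavCre, against 3378, 3891 and 3728 in WT. It was nearly absent from every vavCre library (log2 change -9.34, SE 0.91, adjusted p = 9.44e-05).

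Vcam1 (chromosome 3, 116109949 to 116129688), which encodes the adhesion molecule that binds α4β1 integrin on erythroblasts, had 15970, 13590 and 13580 normalised reads in vavCre, against 54420, 46330 and 58170 in WT. It stayed high but dropped by 1.88 on the log2 scale (SE 0.09, adjusted p = 3.63e-10). Siglec1 (CD169, the sialic acid receptor used to mark marrow resident macrophages) had 129.8, 137 and 230.9 normalised reads in vavCre, against 892.9, 1008 and 1166 in WT (log2 change -2.66, SE 0.30, adjusted p = 1.07e-05). The highest vavCre library lay well below the lowest WT library.

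Cd163, the receptor for haptoglobin-hemoglobin complexes that also binds erythroblasts, averaged 68.3 ± 31.6 normalised reads in vavCre and 450.1 ± 131 in WT (SD, n = 3 each; log2 change -2.76, adjusted p = 1.76e-05). Trf, which encodes the iron carrier transferrin, had 3672, 4003 and 4966 normalised reads in vavCre, against 12670, 16550 and 14560 in WT (log2 change -1.80, adjusted p = 2.97e-07). Epor, the erythropoietin receptor, averaged 397 ± 78.5 in vavCre and 1306 ± 57.1 in WT (SD, n = 3 each; log2 change -1.73, adjusted p = 1.5e-05). All 3 were apart in every library.

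The falls of Cd44 (hyaluronan receptor, -0.71), Mertk (phagocytic receptor kinase, -0.71), Itgav (αV integrin, -0.79) and Ermap (an erythroid membrane protein, -1.38) on the log2 scale were smaller. The Mertk call was lost without WT replicate 1, WT replicate 3 or vavCre replicate 2 (limma adjusted p of 0.0651 to 0.0755). Maea, which encodes the erythroblast macrophage protein EMP, was not called (1079 ± 187 normalised reads in vavCre and 849 ± 207 in WT, SD, n = 3 each, adjusted p = 0.349), nor was Itgb1 (β1 integrin, log2 change 0.24, adjusted p = 0.304). Icam1, a ligand of leukocyte integrins, rose (log2 change 0.70, adjusted p = 0.011), as did Adgre1 (log2 change 0.45, adjusted p = 0.0291), whose call was kept in 1 of the 6 fits that left out a library. Neither rose without WT replicate 1, and 1 island gene rose without WT replicate 3, vavCre replicate 1 or vavCre replicate 2; 8 to 10 fell in the 6 fits. Epor and Ermap are expressed by erythroblasts as well, and erythroid genes as a group fell in these libraries (given with the other cell types).

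**Figure D2:**
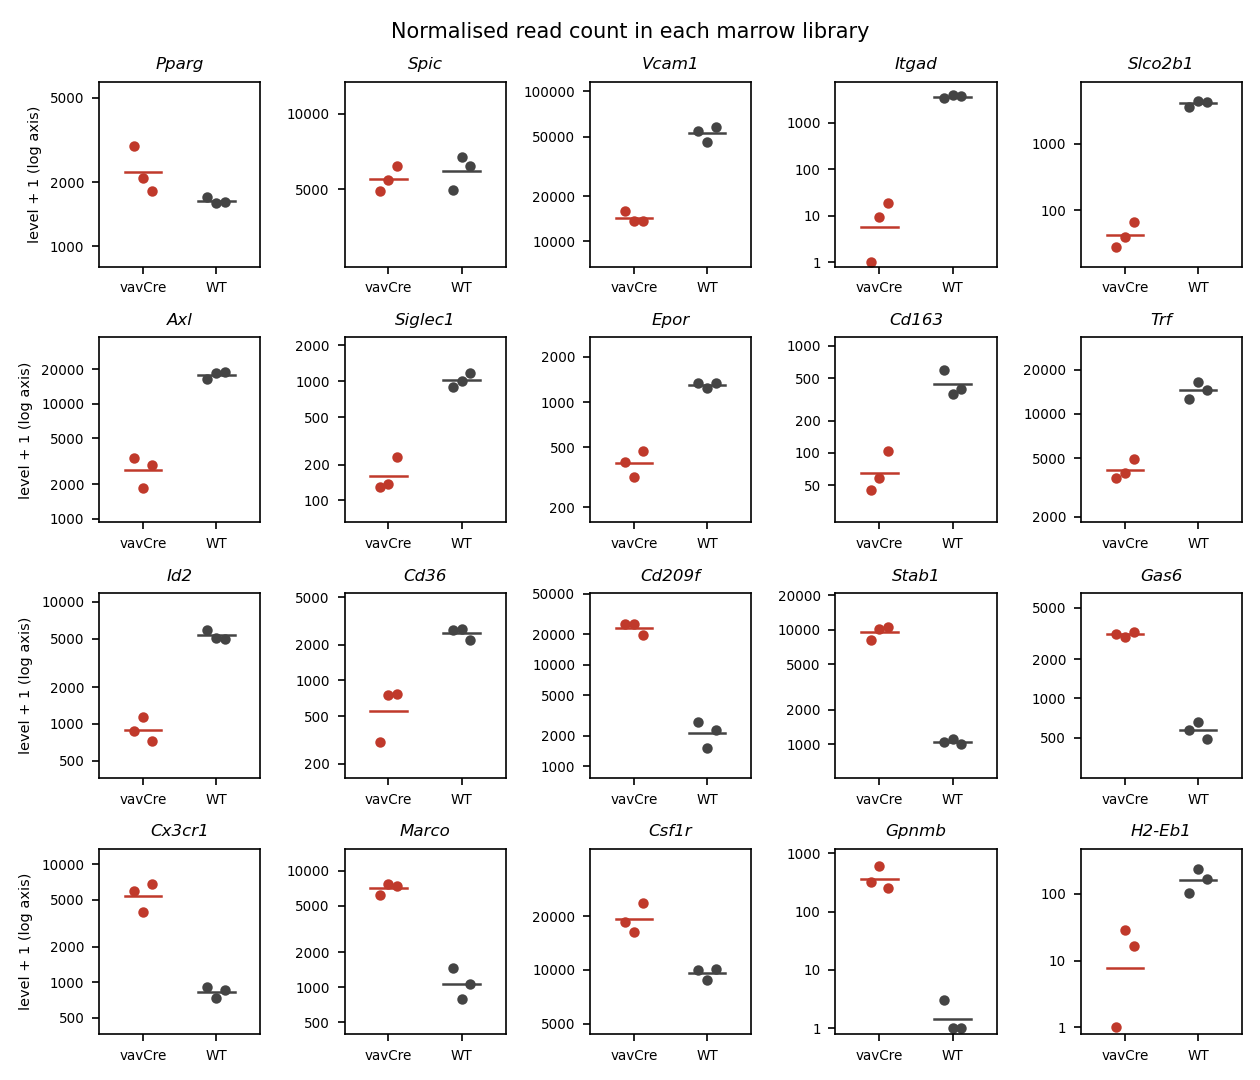
Level of 20 genes in each marrow library, in normalised reads plus 1 (log scale); points are the 3 vavCre and 3 WT libraries and bars the mean of the log2 values. Spic overlaps between groups, Itgad, Slco2b1 and Siglec1 are lower in all 3 vavCre libraries, and Cd209f, Stab1, Gas6, Cx3cr1 and Marco are higher in all 3.

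Besides Itgad, the deepest falls were in genes that WT marrow macrophages expressed and vavCre cells hardly did. Slco2b1 (chromosome 7, 99657804 to 99711340), an organic anion transporter, had 27.21, 38.79 and 65.63 normalised reads in vavCre, against 3650, 4346 and 4283 in WT (log2 change -6.60, SE 0.26, adjusted p = 1.54e-11). Vstm4, a transmembrane protein with an immunoglobulin domain, had 0, 2.424 and 9.053 in vavCre, against 569.1, 885.7 and 930.2 in WT (log2 change -7.90, SE 0.65, adjusted p = 1.92e-07). Clec4b1, a C-type lectin, had 4.187, 12.12 and 2.263 in vavCre, against 695.8, 812.1 and 727.4 in WT (log2 change -6.94, adjusted p = 6.24e-08). None of the 3 genes overlapped between groups.

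Ear2, an RNase of the eosinophil-associated family, had 23.03, 13.33 and 81.48 normalised reads in vavCre, against 1760, 2019 and 2666 in WT (log2 change -6.12, adjusted p = 1.41e-08). Ubd, the ubiquitin-like protein FAT10, had 0 reads in all vavCre libraries, against 207.1, 107.8 and 131.7 normalised reads in WT, which makes it at least 26.7-fold lower (3 reads per library taken as the floor). Adgrv1 (adhesion receptor) and Mmp25 (membrane metalloproteinase) were likewise at 0 in vavCre, at least 15.4-fold and 13.1-fold lower. Fgf1, a fibroblast growth factor, had 2 reads in the vavCre libraries together and 542 in WT, a ratio of 182 per unit of depth (95% counting interval 50.2 to 1508). Inf2 (a formin), Bag2 (a co-chaperone), Epb4.1l4b (a FERM-domain protein), Chst3 (a sulfotransferase), B3gnt5 (a glycolipid glycosyltransferase) and Abcg4 (a sterol transporter) complete the 15 largest falls. In all, 51 called genes had no read in any vavCre library and 9 had none in any WT library. Read depth was 4.59, 7.88 and 4.26 M in vavCre and 4.58, 10.8 and 8.74 M in WT. Its part in these 2 counts was not tested.

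Gpnmb and Ednrb were among the largest rises. Gpnmb, a lysosomal and surface glycoprotein induced in lipid-laden macrophages, had 322.4, 601.2 and 253.5 normalised reads in vavCre, against 2.011, 0 and 0 in WT. That is 762 reads in vavCre against 1 in WT, a ratio of 1134 per unit of depth with a 95% counting interval of 203 to 44836. Ednrb, the endothelin B receptor, had 2177, 2359 and 2032 normalised reads in vavCre, against 162.9, 15.77 and 45.99 in WT (log2 change 5.43, SE 0.60, adjusted p = 9.09e-06).

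Fcrls, an Fc receptor-like scavenger protein, averaged 278 ± 59.3 normalised reads in vavCre and 4.18 ± 7.24 in WT (SD, n = 3 each; log2 change 6.85, adjusted p = 0.000555). Tlr5, the flagellin receptor, averaged 196 ± 66.6 in vavCre and 5.74 ± 7.39 in WT (SD, n = 3 each; log2 change 5.57, adjusted p = 0.00156). Clec5a (a DAP12-coupled lectin), Fam20c (a secretory pathway kinase), Rhou (a small GTPase), Ak1 (adenylate kinase), Dgkh (a diacylglycerol kinase), Casq1 (calsequestrin), Rapsn (rapsyn), Lyzl4, Wfdc18, Adam3 and Fbxo47 make up the rest of the 15 largest rises. Of these, Rhou lost its call without vavCre replicate 1 (adjusted p = 0.0671), Dgkh without each of 3 libraries, Ak1 without each of 4, and Fbxo47 without each of 5.

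Among changes of at least 2-fold, the rises with the most reads were of macrophage secretory, lysosomal and receptor genes. Sepp1 (selenoprotein P, the secreted selenium carrier) had 150600, 142100 and 177000 normalised reads in vavCre, against 75620, 74500 and 72890 in WT (log2 change 1.07, SE 0.08, adjusted p = 9.21e-08). Lyz2 (lysozyme, 1.11), Ctsc (cathepsin C, 1.06), Cd209f (3.45) and Csf1r (the CSF1 receptor, 1.01) were the other 4 of the 5 most abundant rises of at least 2-fold, given as log2 changes. Csf1r had 18490, 16340 and 23770 normalised reads in vavCre, against 9984, 8770 and 10080 in WT. All 5 were higher in each vavCre library than in any WT library.

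PPARγ target genes of lipid uptake and storage did not move together. Of 21 tested, 3 fell and 2 rose, and the median log2 change was -0.28. Gpd1, which makes glycerol 3-phosphate for fat synthesis, had 6.28, 29.09 and 2.263 normalised reads in vavCre, against 414.3, 310.1 and 340.7 in WT (log2 change -5.30, SE 0.61, adjusted p = 1.54e-05). Cd36 (chromosome 5, 17781690 to 17888801), the scavenger receptor for oxidised lipid, had 301.4, 747.8 and 767.2 in vavCre, against 2628, 2710 and 2200 in WT (log2 change -2.16, SE 0.26, adjusted p = 2.67e-05). Mgll, monoacylglycerol lipase, averaged 118 ± 96.1 in vavCre and 639.5 ± 114 in WT (SD, n = 3 each; log2 change -2.77, adjusted p = 0.000807). These 3 falls were kept whichever library was left out.

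Scarb1, the HDL receptor, rose instead (2339 ± 189 normalised reads in vavCre and 1142 ± 208 in WT, SD, n = 3 each; log2 change 1.05, adjusted p = 0.000181), as did the lipid droplet coat gene Plin2 (log2 change 0.57, adjusted p = 0.0385), whose call was kept in 1 of 6 leave-out fits. Without WT replicate 1, WT replicate 3 or any 1 vavCre library, 1 of the 21 rose. The fatty acid-binding proteins Fabp4 and Fabp5 were not called. Fabp4 had 205.1, 89.69 and 15.84 normalised reads in vavCre, against 203.1, 118.3 and 279.1 in WT (log2 change -1.48, adjusted p = 0.331), and Fabp5 had a log2 change of -0.14 (adjusted p = 0.811). Lipoprotein lipase (Lpl) was high in both groups, 14733 ± 1428 in vavCre and 14833 ± 2482 in WT (SD, n = 3 each), with a log2 change of 0.00. Angptl4, an inhibitor of that lipase, was not called (log2 change -0.85, adjusted p = 0.077). Among 26 nuclear receptors and cofactors, 1 fell (the corepressor Nrip1, log2 change -1.24, adjusted p = 0.00472) and none rose by limma; 3 fell without vavCre replicate 2, by DESeq2, with a pseudocount of 0.1 and with the stricter filter. A single fall among 26 is near the share over all genes tested, of which 4.40% fell and 3.41% rose. The PPARγ partner Rxra (log2 change 0.38, adjusted p = 0.352) and the oxysterol receptor Nr1h3 (LXRα, -0.92, adjusted p = 0.0508) did not pass.

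Of 21 cholesterol genes tested, 8 rose and 3 fell, with a median log2 change of 0.11 (0.07 with groups at 0 reads at their bound). Over all genes tested 3.41% rose and 4.40% fell. Those shares depend on level, and the cholesterol list was not compared with genes of its level. The rises were of Npc1 (lysosomal cholesterol export, 0.82), Scd2 (desaturase, 1.32), Abca9 (1.18) and Abca1 (cholesterol efflux, 0.63), and of Soat1, Cyp27a1, Apoe and Plin2. Scd1 had 0, 1.212 and 58.85 normalised reads in vavCre, against 134.7, 240 and 179.8 in WT (log2 change -5.15, adjusted p = 0.00424), while its paralog Scd2 averaged 954 ± 135 in vavCre and 388 ± 98.4 in WT (SD, n = 3 each). The efflux pump Abcg1 (-0.43) and the apolipoprotein Apoc1 (-1.42) also fell, but the Abcg1 call was lost in each of the 6 leave-out fits. Without WT replicate 1 or vavCre replicate 3, 5 of the 21 rose and 1 fell, and without WT replicate 3 or vavCre replicate 1, 6 rose and 1 fell. Of 22 fatty acid oxidation genes 4 fell, Etfb (-0.68), Acadm (-0.70), Acads and Ehhadh, and 1 rose (Slc25a20, 1.05). The Acads and Ehhadh calls were lost in 5 and 3 of the 6 leave-out fits. The rise was lost without WT replicate 3 or any 1 vavCre library, with 1, 3, 2 and 2 falls left without WT replicate 3 and vavCre replicates 1, 2 and 3. Glycolysis genes numbered 2 rises (Aldoa 0.64, Pgk1 0.73) and 1 fall (Pdk1, -0.93) of 21, of which Pgk1 and Pdk1 lost their calls in 5 and 4 of the 6 leave-out fits.

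The transcription factor list had 3 falls and 2 rises among 31. Id2 (chromosome 12, 25093799 to 25097140), a helix-loop-helix inhibitor that tissue macrophages of liver and spleen express, had 866.6, 1136 and 717.5 normalised reads in vavCre, against 5900, 5091 and 5001 in WT (log2 change -2.58, SE 0.16, adjusted p = 4.48e-09). Bhlhe40, another helix-loop-helix factor, had 6.28, 25.45 and 20.37 in vavCre, against 253.4, 343.4 and 289.5 in WT (log2 change -4.20, adjusted p = 3.52e-05). Both falls held without any 1 library. Spib, an ETS factor of B and plasmacytoid cells, fell (log2 change -4.45, adjusted p = 0.0285) but lost its call without each WT library. Maf rose (20697 ± 1247 normalised reads in vavCre and 12239 ± 2774 in WT, SD, n = 3 each; log2 change 0.78, adjusted p = 0.00468), and Mitf rose by 1.04 with a call that was lost in 5 of 6 leave-out fits. Irf8, Zeb2 and Nfe2l2 were not called.

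Genes for taking up dying cells and expelled nuclei split by receptor. Of 25, 5 fell and 4 rose, with a median of -0.07. Axl, a phagocytic receptor kinase that binds phosphatidylserine through its ligand Gas6, had 3383, 1861 and 2926 normalised reads in vavCre, against 16410, 18680 and 18970 in WT (log2 change -2.77, SE 0.16, adjusted p = 2.19e-09). Its ligand went the other way: Gas6 had 3140, 2989 and 3236 in vavCre, against 573.1, 660.5 and 487 in WT (log2 change 2.45, SE 0.17, adjusted p = 1.95e-08). The 2 stabilins, which also bind phosphatidylserine, moved in opposite directions as well. Stab1 had 8130, 10240 and 10490 in vavCre, against 1036, 1097 and 1006 in WT (log2 change 3.19, SE 0.18, adjusted p = 1.67e-09). Stab2 averaged 700.1 ± 107 in vavCre and 1856 ± 158 in WT (SD, n = 3 each; log2 change -1.41, adjusted p = 1.02e-05). The phosphatidylserine receptor Timd4 fell (-0.95, adjusted p = 0.00392), as did Lrp1 and, with the call lost in 3 of the 6 leave-out fits, Mertk. Dnase1l3, a secreted nuclease, rose (log2 change 1.57, adjusted p = 3.22e-05), while Dnase2a, the lysosomal nuclease of island macrophages, was not called (1306 ± 99.3 in vavCre and 1522 ± 181 in WT, SD, n = 3 each, log2 change -0.22, adjusted p = 0.56).

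Iron and heme genes showed 4 rises and 4 falls of 26, with a median of -0.07. Cp, the ferroxidase ceruloplasmin, had 1528, 1147 and 1150 normalised reads in vavCre, against 275.5, 201.5 and 379.4 in WT (log2 change 2.19, SE 0.27, adjusted p = 2.67e-05). Smaller rises were those of Fth1 (ferritin heavy chain, 0.49), Slc11a2 (the iron importer DMT1, 1.09) and Slc40a1 (the iron exporter ferroportin, 0.29). Trf, Cd163, Lrp1 and Aco1 fell. The heme-degrading Hmox1 was not called (21297 ± 3178 normalised reads in vavCre and 25867 ± 8011 in WT, SD, n = 3 each, log2 change -0.25, adjusted p = 0.559), and neither was the ferritin light chain Ftl1 (0.09, adjusted p = 0.684). With only marrow libraries in the fit, 2 rose and 2 fell, and without vavCre replicate 2, 2 rose and 4 fell.

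The list of genes typical of LYVE1- and FOLR2-expressing resident macrophages had the largest share of rises of the 39 lists: 12 of 24 rose and 1 fell, with a median log2 change of 0.93 (1.07 with groups at 0 reads set at their bound). Members and lists were chosen with earlier results of these data known, so this rank is not an independent result. Cd209f (chromosome 8, 4102787 to 4105835), a lectin of the DC-SIGN family, had 25250, 25550 and 19670 normalised reads in vavCre, against 2753, 1523 and 2296 in WT (log2 change 3.45, SE 0.22, adjusted p = 1.72e-08). Cd209g (chromosome 8, 4134098 to 4137707) had 3891, 4662 and 3569 in vavCre, against 239.3, 212.9 and 225.8 in WT (log2 change 4.15, SE 0.24, adjusted p = 2.7e-09). The close paralogs Cd209b and Cd209d stayed at or near 0 in all 6 libraries. Pf4, a CXC chemokine made by platelets and resident macrophages, had 15850, 16840 and 17850 in vavCre, against 4066, 2413 and 3723 in WT (log2 change 2.34, SE 0.18, adjusted p = 5.47e-08).

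Also in this list were Stab1, Gas6, Ednrb, Sepp1, Cbr2 (carbonyl reductase, log2 change 1.67), Folr2 (folate receptor β, 1.75), Ccl8 (2.56), Ninj1 (1.11) and Igf1 (0.44), which rose, and Timd4, which fell. Lyve1 itself was at 0 to 37.7 normalised reads in all libraries and not called (adjusted p = 0.827), and Mrc1 (mannose receptor, log2 change 0.27, adjusted p = 0.237) and Fcna (ficolin A, -0.33, adjusted p = 0.179) were high in both groups without a call. Of 16 Kupffer cell genes, 4 rose and 3 fell, with a median log2 change of -0.58 (-0.60 with groups at 0 reads at their bound). Among them the scavenger receptor Marco had 6179, 7723 and 7433 normalised reads in vavCre, against 1456, 792 and 1071 in WT (log2 change 2.72, SE 0.18, adjusted p = 1.49e-08). Clec4f, a defining gene of Kupffer cells, and the list members Cd207 and Fabp7 were at 0 in all 6 libraries. Without vavCre replicate 1, 2 of the Kupffer cell genes rose and 5 fell. Of 14 alveolar macrophage genes 2 rose and 2 fell, with 1 fall left in each leave-out fit. Their median log2 change was -0.89 (-0.82 with groups at 0 reads at their bound). Of 16 osteoclast genes Gpnmb and Mitf rose and Car2 and Acp5 fell, with 1 rise left without WT replicate 3 or any 1 vavCre library and 1 fall left without WT replicate 2 or vavCre replicate 1.

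**Figure D3:**
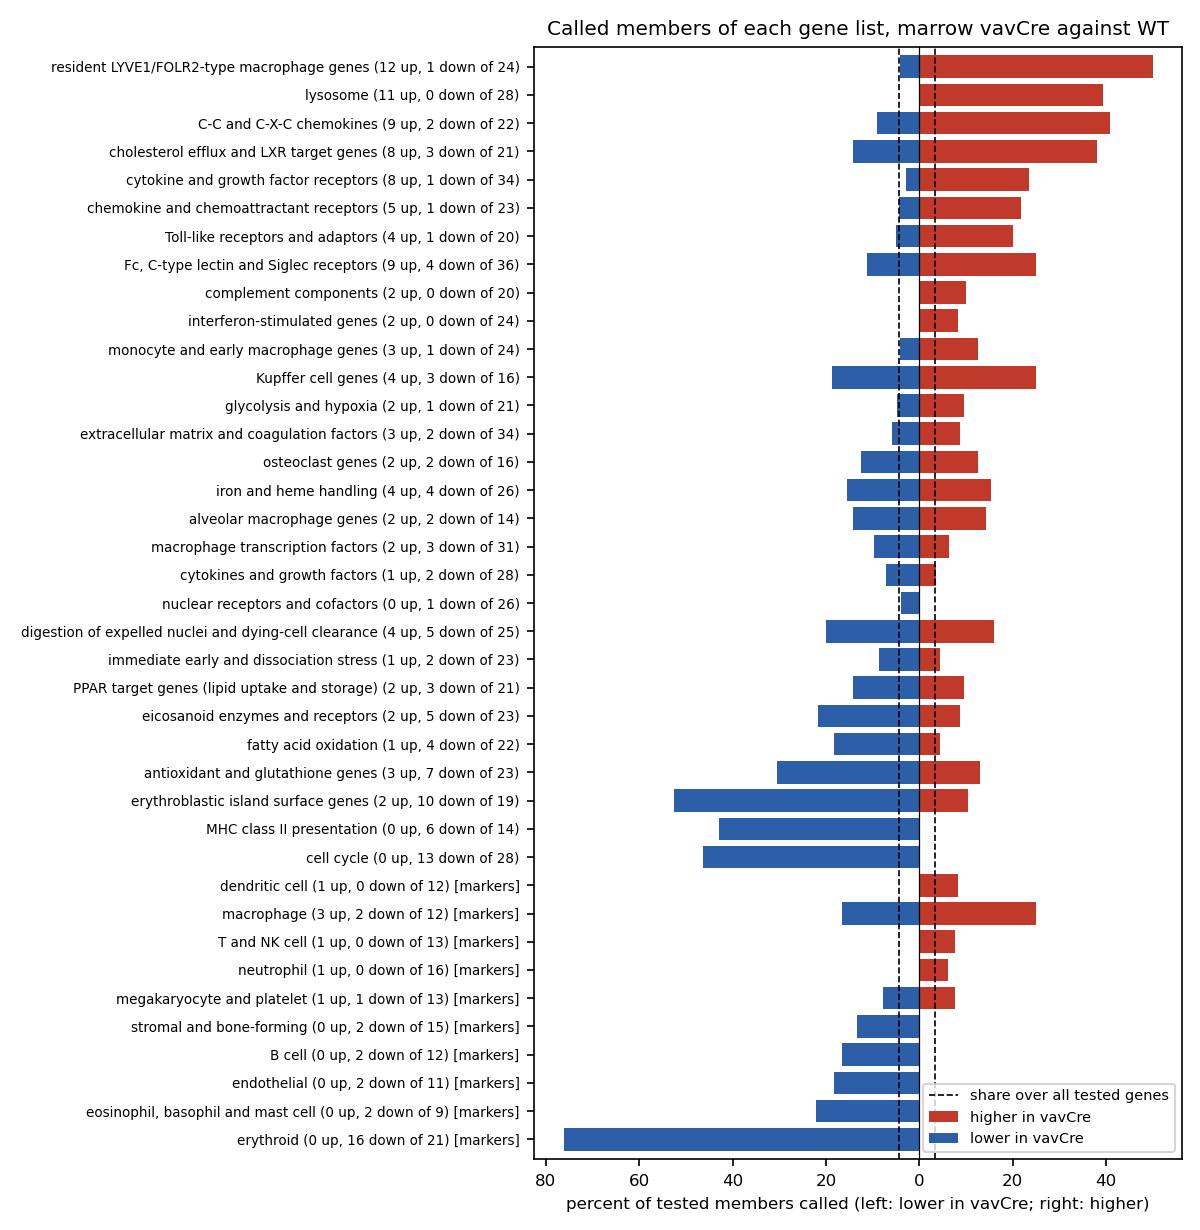
Share of the tested members of each gene list that rose (right) or fell (left) in vavCre marrow macrophages, in percent; dashed lines mark the share over all genes tested (3.41% rose, 4.40% fell). Resident macrophage, lysosome and chemokine genes have the longest bars of rises, and erythroid, island surface, cell cycle and MHC class II genes the longest bars of falls. The dashed lines are not matched for expression level, and members and lists were chosen with earlier results of these data known.

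Of 22 chemokine genes 9 rose and 2 fell (median log2 change 0.54, or 1.31 with groups at 0 reads at their bound). Cxcl10, an interferon-inducible ligand of CXCR3, had 4013, 3600 and 1716 normalised reads in vavCre, against 335.8, 372.3 and 216.3 in WT (log2 change 3.28, SE 0.27, adjusted p = 2.15e-07). Ccl2, Ccl7, Ccl8 and Ccl12, the monocyte chemoattractant family, rose by 2.44, 2.99, 2.56 and 2.66 on the log2 scale. Ccl3 (3.06), Ccl4 (2.62), Cxcl16 (1.46) and Pf4 completed the rises. Ccl5, a lymphocyte chemokine, averaged 1.21 ± 2.10 normalised reads in vavCre and 51.4 ± 19.9 in WT (SD, n = 3 each; adjusted p = 0.0199) and Ccl6 fell by 0.92; without vavCre replicate 1 or WT replicate 3 neither was called, and without any other library 1 of them was. Of the 24 interferon-stimulated genes 2 rose (Cxcl10 and Bst2, a virus-tethering membrane protein). None fell by limma, and 1 fell by DESeq2 and without vavCre replicate 1 or vavCre replicate 2. Beside these counts, 3.41% of all genes tested rose and 4.40% fell.

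The receptors that read chemoattractants rose in 5 and fell in 1 of 23 cases. Cx3cr1, the fractalkine receptor of monocytes and many tissue macrophages, had 5909, 3972 and 6783 normalised reads in vavCre, against 909, 725.4 and 864.3 in WT (log2 change 2.71, SE 0.18, adjusted p = 1.32e-08). C5ar1, the C5a receptor, had 1199, 1206 and 1055 in vavCre, against 94.52, 112.1 and 145.3 in WT (log2 change 3.31, SE 0.33, adjusted p = 2e-06). C3ar1, the C3a receptor, averaged 3570 ± 589 in vavCre and 571 ± 152 in WT (SD, n = 3 each; log2 change 2.67, adjusted p = 1.92e-07). Gpr183 and S1pr2 rose and Ccr3 fell (log2 change -1.96, adjusted p = 0.000158). The median over the 23 genes was -0.34, or 0.23 with groups at 0 reads at their bound, so its sign depends on how genes at 0 are set. Without WT replicate 1, WT replicate 2 or vavCre replicate 3, 3 rose and 1 fell, and without vavCre replicate 1, 4 rose and 2 fell.

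Receptors for growth factors and cytokines rose in 8 and fell in 1 of 34 cases, with a median of 0.33. Besides Csf1r, the rises were of Csf2rb2 (1.72) and Csf2rb (0.82), β chains of the GM-CSF receptor family, Il21r (1.58), Ifnar1 (0.79), Tnfrsf1b, Il2rg and Csf3r; Epor fell. Without vavCre replicate 3, 5 rose, and without WT replicate 1, vavCre replicate 1 and vavCre replicate 2, 3, 2 and 3 fell. Of 28 cytokine and growth factor genes only Igf1 rose, and Kitl (stem cell factor, 149 ± 58.9 normalised reads in vavCre and 773 ± 188 in WT, SD, n = 3 each, log2 change -2.43) and Il18 (-0.75) fell; without WT replicate 2, 2 rose. For comparison, 3.41% of all genes tested rose and 4.40% fell. Il1b and Tnf were at 0 to 118 normalised reads in all 6 libraries and were not called.

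Surface receptors of the Fc, C-type lectin and Siglec families moved both ways, 9 rising and 4 falling of 36. Clec4n (dectin-2), a fungal mannan receptor, rose (log2 change 1.54, adjusted p = 1.09e-06), as did Cd33 (2.07), the inhibitory Fcgr2b (1.89), Siglece (1.39), Clec4d, Clec5a and the Fc receptor γ chain Fcer1g (0.35). The inhibitory lectin Clec12a averaged 477 ± 181 normalised reads in vavCre and 2239 ± 265 in WT (SD, n = 3 each; log2 change -2.28, adjusted p = 1.66e-06), and Siglec1 and the high-affinity IgG receptor Fcgr1 (-0.76) fell. Fcgr4 fell too, with a call that was kept in 2 of 6 leave-out fits. Of 20 Toll-like receptor and adaptor genes, Ly86 (MD-1, 1.05), Tlr5, Tlr1 (1.14) and Tlr2 (0.86) rose, and Tlr8 fell (-1.25) with a call that was lost without WT replicate 2, WT replicate 3 or vavCre replicate 1. Of 20 complement genes 2 rose and none fell by limma, among them the complement regulator Cd55 (1.85), and C1qa, C1qb and C1qc, high in both groups, had log2 changes of -0.07, 0.20 and 0.08 with no call. Without WT replicate 1, 1 complement gene fell.

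Lysosome genes rose in 11 of 28 cases, with a median of 0.41, and none fell in any of the fits tried. Over all genes tested 3.41% rose, but the share depends on level. It was 11.5% between 1000 and 5000 normalised reads and 26.0% at 5000 or more. The list was not compared with genes of its level. Ctsc had 30900, 29870 and 29880 normalised reads in vavCre, against 14070, 14240 and 15300 in WT (log2 change 1.06, SE 0.09, adjusted p = 4.9e-07). Grn, which encodes the lysosomal protein progranulin, averaged 33373 ± 2001 in vavCre and 19410 ± 1729 in WT (SD, n = 3 each; log2 change 0.78, adjusted p = 4.36e-05). The galactosidase Gla rose most after Gpnmb (log2 change 1.74), and Npc1, Ctsl, Ctsz, Ctsh, Cd63, Lamp2 and Hexa by 0.44 to 0.82. Lamp1, Ctsb, Ctsd, Ctss and Cd68 were high in both groups and not called. Antioxidant genes had 3 rises and 7 falls of 23. The secreted Sepp1 and Gpx3 (plasma glutathione peroxidase, 1.61) rose, as did the peroxiredoxin Prdx5 (0.57). Txn1 (thioredoxin) had 3759, 3886 and 3565 in vavCre, against 8386, 7720 and 8363 in WT (log2 change -1.13, SE 0.11, adjusted p = 1.72e-06), and the intracellular enzymes Sod1 (-0.76), Gpx1 (-0.75), Cat (-0.71), Prdx2 (-0.60), Nqo1 and Gclc fell.

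Eicosanoid genes showed 5 falls and 2 rises of 23: Tbxas1 (thromboxane synthase, -0.83), Ptgs1 (cyclooxygenase 1, -0.49), Hpgd (prostaglandin breakdown, -0.56), Ephx1 and Ptger2 fell, and Alox5ap (5-lipoxygenase activator, 1.44) and Ptger4 rose. Without WT replicate 3, 2 of these fell and 2 rose, without vavCre replicate 1, 3 fell and 1 rose, and without WT replicate 1, WT replicate 2 or vavCre replicate 3, 4 fell and 1 rose. Matrix and coagulation genes had 3 rises, among them Mmp14 (membrane metalloproteinase, 1.65) and Spp1 (osteopontin, 2.55), and 2 falls of 34, of which 1 fall was left without WT replicate 2, WT replicate 3 or vavCre replicate 3. The Spp1 call was lost without vavCre replicate 1 (limma adjusted p = 0.0609). The median log2 change of the 34 matrix and coagulation genes was -0.71. Of 24 monocyte and early macrophage genes, Cx3cr1, Cybb (NADPH oxidase, 0.86) and Lyz2 rose and Treml4 fell (233 ± 87.0 normalised reads in vavCre and 1009 ± 105 in WT, SD, n = 3 each; log2 change -2.18, adjusted p = 3.54e-06); 3 fell without vavCre replicate 2 and 2 without vavCre replicate 3. Over the 24 genes the median log2 change was -0.84, or -0.81 with groups at 0 reads at their bound. The monocyte genes Ccr2 and Ly6c2 were not called (log2 changes -0.61 and -0.86, adjusted p = 0.83 and 0.805). Of 23 immediate early and stress genes Ier3 rose (1.53) and Btg2 (-0.73) and Hsp90aa1 (-0.92) fell; without WT replicate 1 another gene rose, and without WT replicate 3 or vavCre replicate 2 only 1 fell.

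MHC class II presentation genes fell in 6 of 14 cases, with a median of -1.72, and none rose by limma except 1 without WT replicate 2. The summed list was 0.0508 to 0.0552% of the signal in vavCre and 0.0524 to 0.0866% in WT, ranges that overlap. H2-Eb1, a class II β chain, had 0, 27.88 and 15.84 normalised reads in vavCre, against 102.6, 236.5 and 166.2 in WT (log2 change -4.35, SE 0.96, adjusted p = 0.00751). H2-DMb2 (-4.80) and H2-DMa (-1.31), which load peptides, and H2-Aa, H2-Ab1 and H2-Ob also fell, the H2-Aa call being lost in 5 of the 6 leave-out fits; Cd74 (invariant chain, -1.48, adjusted p = 0.252) and the regulator Ciita (-2.71, adjusted p = 0.292) were not called. The count was sensitive to single libraries: 3 fell without vavCre replicate 1 or WT replicate 2, 4 without WT replicate 1, WT replicate 3 or vavCre replicate 2, 7 without vavCre replicate 3, and 2 with only marrow libraries in the fit. Summed B cell markers, another source of class II RNA, were 0.0215 to 0.0390% of the signal in vavCre and 0.0515 to 0.124% in WT, and of the 12 Cd79b and Pax5 fell, with 1 fall left without WT replicate 1, WT replicate 2 or vavCre replicate 1. WT replicate 2 was highest for Cd79a, Pax5, H2-DMa, H2-Ob and Cd74. The part of B cell RNA in the class II result was not tested.

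Erythroid RNA was lower throughout the vavCre libraries. Of 21 erythroid genes 16 fell and none rose, and 13 to 18 fell and none rose when any 1 library was left out. Their sum was 0.999 to 1.46% of the signal in vavCre and 2.63 to 3.84% in WT. Hbb-bs, a β-globin, had 47680, 50550 and 34630 normalised reads in vavCre, against 135500, 117800 and 87340 in WT (log2 change -1.35, SE 0.23, adjusted p = 0.00418). Rhag (-1.78), Slc4a1 (band 3, -1.70), Car1 (-2.40) and the erythroid factors Klf1 (-2.43) and Gata1 (-2.09) fell as well, whereas Tfrc (transferrin receptor) was not called (5767 ± 565 in vavCre and 7781 ± 2579 in WT, SD, n = 3 each, adjusted p = 0.325). The part of erythroid RNA in the falls of Epor, Ermap and Car2, which erythroblasts also express, was not tested.

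Cell cycle genes fell in 13 of 28 cases, with a median of -0.77, and none rose except 1 without WT replicate 3. Mki67 had 2621, 2759 and 2078 normalised reads in vavCre, against 5586, 3596 and 5176 in WT (log2 change -0.93, SE 0.17, adjusted p = 0.00165), and Top2a averaged 1225 ± 335 in vavCre and 2751 ± 166 in WT (SD, n = 3 each; log2 change -1.20, adjusted p = 0.000395). The others were the replication genes Mcm2 to Mcm7, Rrm1, Rrm2, Pcna and Cdc6, and Ccna2. Without vavCre replicate 3 or WT replicate 3, 8 fell, and with only marrow libraries in the fit 8 fell. Erythroblasts divide, and the erythroid sum was lower in the same 3 libraries; its part in the cell cycle result was not tested.

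Markers of other cells were few, and most of their lists leaned lower in vavCre. Median log2 changes were -2.05 (T and NK cell), -1.96 (eosinophil, basophil and mast cell), -1.41 (stromal), -0.998 (neutrophil) and -0.92 (endothelial). With groups at 0 reads at their bound, T and NK cell genes had -1.57 and the eosinophil list -0.82. The megakaryocyte median was 0.33 and the dendritic cell median -0.49, or 0.64 at the bound. All genes tested had -0.04, and the lists were not matched for level. T and NK cell genes gave a single call, Cd4, with 5204, 6141 and 5699 normalised reads in vavCre, against 1422, 1466 and 2393 in WT (log2 change 1.73, adjusted p = 2.38e-06), while Cd3d, Cd3e and Trac, which define T cells, were at 0 in all vavCre libraries. Megakaryocyte genes gave Pf4 as the 1 rise and Gp9 as the 1 fall of 13, lost without WT replicate 2, WT replicate 3, vavCre replicate 1 or vavCre replicate 2; Gp6 and Tubb1 were at 0 in all 6 libraries and Ppbp at 0 to 71.1, while the summed list, Pf4 included, was 0.167 to 0.186% of the signal in vavCre and 0.0280 to 0.0453% in WT. Eosinophil, basophil and mast cell genes gave Ear2 and Ccr3 as falls of 9, with Prg2 and Siglecf at 0 in all vavCre libraries and at 0 to 29.3 in WT. The summed list, Ear2 and Ccr3 included, was 0.00537 to 0.0255% of the signal in vavCre and 0.0321 to 0.0550% in WT. In WT, Ear2 had 1760 to 2666 and Ccr3 682.4 to 1146 of summed levels of 2962 to 5225 normalised reads. The highest vavCre sum was 2439, while Ear2 reached at most 81.48 and Ccr3 391.5 in vavCre, so other members gave most of that sum. The part of megakaryocytes, platelets, eosinophils, basophils and mast cells in the Pf4, Ear2 and Ccr3 results was not tested. Endothelial genes gave Stab2 and Pecam1 as falls of 11, and stromal genes Kitl and Adipoq as falls of 15 (the Pecam1 and Adipoq calls lost in 2 and 3 of 6 leave-out fits), with summed levels of 0.0100 to 0.0111% in vavCre and 0.0234 to 0.0268% in WT, and of 0.0124 to 0.0353% in vavCre and 0.0352 to 0.0720% in WT. Most of the endothelial sum was Stab2 itself, at 613.3 to 819.3 of 958 to 1075 normalised reads in vavCre. In WT it was 1697 to 2012 of 2225 to 2446. Dendritic cell genes gave Bst2 as a rise of 12, with sums of 0.0235 to 0.0321% in vavCre and 0.0129 to 0.0141% in WT, and neutrophil genes Csf3r as a rise of 16, lost in 5 of 6 leave-out fits, with Elane at 0 throughout and summed neutrophil levels of 0.0229 to 0.0290% in vavCre and 0.0204 to 0.0529% in WT. Bst2 made up most of the dendritic cell sum, at 1962 to 2574 of 2270 to 3066 normalised reads in vavCre. In WT it had 858.1 to 1085 of 1187 to 1343. Without vavCre replicate 2, 1 endothelial and 1 stromal gene fell and 1 T and NK cell gene fell; without WT replicate 1, 1 stromal gene fell; without WT replicate 2 or WT replicate 3, 2 dendritic cell genes rose.

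Spic RNA was not called in marrow, so the genes that were lower in spleen cells of Spic_KO pups were looked up there. In day-7 spleen macrophages, which were normalised in a separate table, Spic had 931.1 and 1236 normalised reads in Spic_KO, against 3110, 1993 and 2203 in Spic_WT (log2 change -1.16, SE 0.30, adjusted p = 0.0319). The libraries did not overlap, but the call was lost without either Spic_KO library, without Spic_WT replicate 1 or without Spic_WT replicate 3 (adjusted p of 0.0726 to 0.148). It was also lost with a replicate block (limma adjusted p = 0.0705), with the compared groups only (0.139) and with no filter (0.0562). Pparg was lower there too, at 26.03 and 21.73 in Spic_KO, against 330.4, 210.6 and 221.4 in Spic_WT (log2 change -3.33, adjusted p = 2.9e-05). That comparison called 658 of 16650 genes (3.95%), 245 higher (1.47%) and 413 lower (2.48%); edgeR with TMM scaling called 554 higher and 395 lower there, so its balance of directions depends on the scaling.

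Of the 413 genes lower in Spic_KO, 401 were tested in marrow: 77 fell in vavCre marrow (19.2%), 23 rose (5.74%) and 301 were not called. Their median marrow log2 change was -0.20, beside -0.04 over all genes, and over the 13757 genes tested in both experiments the marrow shares were 4.72% fallen and 3.69% risen. The 77 are 11.6% of all marrow falls. Of the 222 tested genes higher in Spic_KO, 38 rose in marrow (17.1%), 11 fell (4.95%) and 173 were not called. Most genes of either set thus had no called change in marrow. The 77 of 401 became 39 of 150, 45 of 198 and 43 of 176 tested genes without Spic_WT replicate 1, 2 and 3. A fit without either Spic_KO library rests on 1 Spic_KO library. With only the compared groups in each fit it was 21 of 243, and with a replicate block 37 of 130. The Spic_KO calls numbered 1972 and 297 without Spic_KO replicate 1 and 2, and 261, 355 and 316 without Spic_WT replicate 1, 2 and 3.

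Genes that fell in both included Itgad, Vstm4, Ubd and Fgf1, Vcam1, Trf, Id2 and Bhlhe40. Itgad had 1.001 and 6.726 normalised reads in Spic_KO, against 2089, 1468 and 1857 in Spic_WT (log2 change -8.83), and so was near 0 in Spic_KO as in vavCre marrow, where Spic was not called. The Spic_KO log2 changes of Vstm4, Id2, Vcam1, Trf and Bhlhe40 were -6.33, -2.01, -1.49, -0.90 and -3.64. Other deep marrow falls were not called in Spic_KO: Slco2b1 (log2 change -0.46, adjusted p = 0.75), Clec4b1 (-0.69, 0.47), Axl (-0.65, 0.15), Siglec1 (0.43, 0.70), Cd163 (0.65, 0.54) and Epor (0.45, 0.61). A few genes went in opposite directions in the 2 comparisons. Cd36 (log2 change 2.40) and H2-Eb1 (3.49) were higher in Spic_KO and fell in marrow, and Cbr2 (-5.29), Cd55 (-3.65), Clec4n (-1.86) and Ly86 (-1.58) were lower in Spic_KO and rose in marrow.

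Pf4, Cx3cr1, C3ar1, C5ar1, Wfdc17 and Cd63 rose in both, by 4.12, 3.56, 2.93, 3.84, 3.42 and 1.81 on the log2 scale in Spic_KO. At the other end, 4 genes lower in Spic_KO had the smallest marrow changes. Cd48, a CD2-family surface protein, had 2998, 3182 and 3293 normalised reads in vavCre marrow, against 2960, 3960 and 2647 in WT marrow, with a Spic_KO log2 change of -1.82. Fam102b (-2.03), Slc25a5 (mitochondrial ADP/ATP carrier, -1.64) and Zc3h15 (-2.14 in Spic_KO) likewise had marrow log2 changes of 0.01 or less in size, and the sign of a change so small turned with the setting. These sets come from different tissues, genotypes and normalisations, and no test compares the sizes of the 2 effects.

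**Figure D4:**
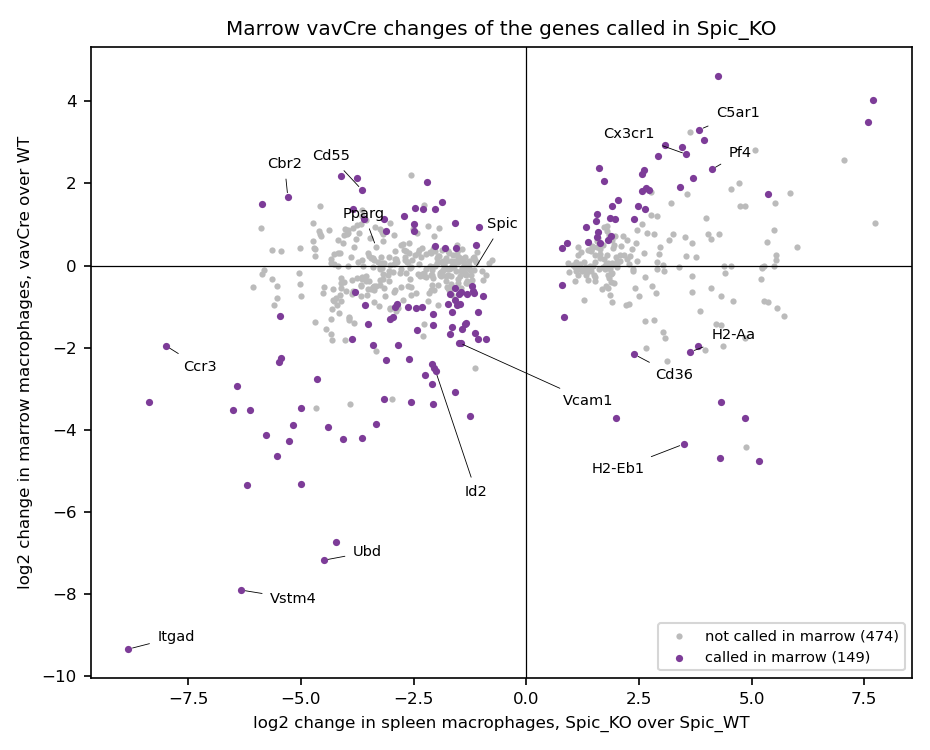
The 623 genes called in Spic_KO spleen macrophages and tested in marrow: x axis, log2 change in spleen, Spic_KO over Spic_WT; y axis, log2 change in marrow, vavCre over WT. In marrow 149 of them were called and 474 were not, with Itgad, Vstm4 and Vcam1 lower in both and Cd36 and Cbr2 opposite.

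Spleen macrophages of the same genotype, in which Spic RNA fell (9260 ± 800.5 normalised reads in vavCre spleen and 14970 ± 1026 in WT spleen, SD, n = 3 each; log2 change -0.69, adjusted p = 0.0012), provide the nearest comparison. The spleen fit called 835 genes (5.52%), 2.98% higher and 2.54% lower, and 536 and 555 without vavCre replicate 2 and WT replicate 2 of spleen. Marrow and spleen shared 518 calls, 43.8% of those in marrow and 62.0% of those in spleen, and 517 of them had the same direction. Timd4 was the exception. Of the 664 genes called in marrow only, 597 had the same sign in spleen and 3 passed the test of the difference between tissues, so a call in marrow alone is mostly not shown to be particular to marrow. The difference in the Spic change missed the threshold of that test (marrow minus spleen 0.59, adjusted p = 0.41).

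The test of the difference, an interaction term, called 18 genes (0.119%), and 935 passed an unadjusted p under 0.05. For 17 of the 18 (0.112% of genes tested) the marrow change was the lower, and for 1 (0.00661%) the higher. For genes that rose in both, the lower marrow change is a smaller rise. Timd4 had 2998, 1990 and 1410 normalised reads in vavCre marrow, against 4052, 3709 and 4044 in WT marrow, but 6424, 5297 and 5132 in vavCre spleen, against 2690, 3223 and 2632 in WT spleen. It therefore fell in marrow and rose in spleen (difference -1.93, adjusted p = 0.0026). Vcam1 fell more in marrow: in spleen it had 34620, 36170 and 32840 in vavCre, against 56220, 57970 and 64210 in WT (difference -1.10, adjusted p = 0.00058).

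Cd209f, Cd209g, Pf4, Stab1, Wfdc17, Sepp1, Cd63, Ms4a7, Cbr2 and Ccl7 rose in both tissues and less in marrow. Except for Cbr2, their mean in WT cells was higher in marrow than in spleen. Cd209f had 41770, 41940 and 35480 normalised reads in vavCre spleen, against 473.8, 658.1 and 311.7 in WT spleen, so that it rose by less in marrow (difference -2.97, adjusted p = 0.00048), where its WT level was the higher. Stab1 had 8130, 10240 and 10490 in vavCre marrow and 6589, 7539 and 8392 in vavCre spleen, so the tissues were closer in vavCre cells than in WT cells, which had 1036, 1097 and 1006 in marrow and 219.4, 242.6 and 147.8 in spleen. Ear2 fell in both and more in marrow (difference -3.55, adjusted p = 0.0098). Cmbl (-1.70), Dmpk (-2.59) and Fgf1 (-5.49) fell in marrow and were not called in spleen. Gpr34, a lysophosphatidylserine receptor, was the gene with the higher marrow change, though it was not called in marrow: 598.7, 844.8 and 531.9 in vavCre marrow, against 370, 486.2 and 627.1 in WT marrow, and 295.8, 362.9 and 407.8 in vavCre spleen, against 1432, 751.2 and 1552 in WT spleen (difference 2.17, adjusted p = 0.036). Of the 17 named here, 9 were called whichever of the 12 libraries was left out, and Ear2 in 10 of the 12 fits. The count was 11 without vavCre replicate 1 of marrow or WT replicate 1 of spleen. Ms4a7 was kept in 6 of the 12 fits, Cmbl and Cbr2 in 4, Gpr34 in 3, and Dmpk, Ccl7 and Fgf1 in 2.

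**Figure D5:**
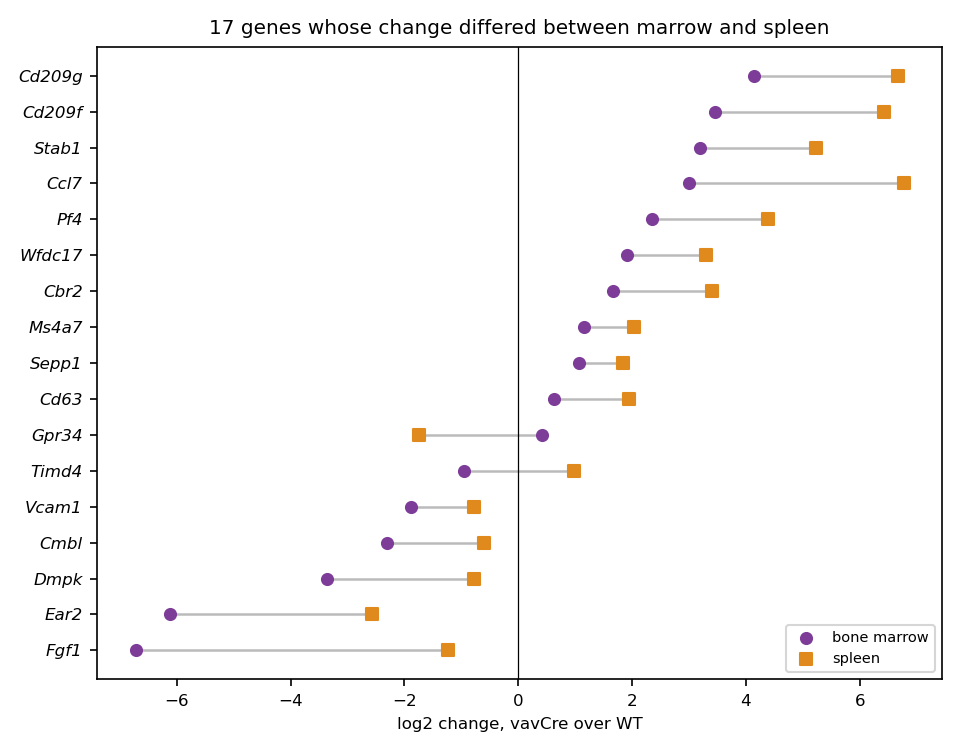
The 17 genes named in the text of the 18 whose vavCre change differed between tissues: log2 change, vavCre over WT, in marrow and in spleen (circles for marrow and squares for spleen, joined by a line). Timd4 lies on opposite sides of 0, Gpr34 is the 1 gene with the higher marrow change, and most others rose less or fell more in marrow than in spleen.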

How the data were processed

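The authors deposited 2 tables of normalised read counts per gene, a signal scaled per library; this unit was read from the values, as no file header names it. STAR, edgeR and the GRCm38 build are named in the submitters' processing notes, with no versions; no source says whether reads were assigned by strand, so reads of overlapping genes and paralogs may be mixed. Values were whole multiples of 1 read for 96.4 to 100% of genes per library (tolerance 0.1 read, up to 500 reads).

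The first table holds the 12 day-7 marrow and spleen vavCre and WT libraries, the other 11 more libraries, and each was fitted alone. Values were log2-transformed after adding 1, which understates the change of low genes, and tested with limma 3.58.1 (R 4.3.3) across all groups of the table, with Benjamini-Hochberg adjustment over all tested genes; "rose", "fell" and "called" mean an adjusted p under 0.05. Of 22524 genes, 15130 reached a value of 1 in at least 2 libraries. The steps were tested on simulated data. Whole reads recovered from the deposited signal were tested as an alternative: edgeR 4.0.16 called 1023 genes in marrow and DESeq2 1.42.0 called 1569. Other alternatives were other pseudocounts (0.1 and 5), no filter, a filter at 10, the compared groups alone, a block for replicate number and dropping 1 library at a time. "Leave-out fits" are those last ones.

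Genes named are Pparg and Spic, the 15 largest called rises and falls whose libraries do not overlap and whose higher group averaged at least 20, the 5 most abundant called each way at a log2 change of 1 or more, up to 4 called members of each of 39 lists (29 of pathways, 10 of cell markers) or 2 where none was called, the genes whose change differs between tissues, and 4 genes each with the largest and smallest marrow change among those lower in Spic_KO. Other list members were named after their values were seen, and members and lists were chosen with earlier results of these data known. Coordinates are GENCODE vM21 (GRCm38), which matched 22214 genes; promoters are from RefSeq. The counting intervals and floors (3 reads) cover counting error only. A few results are not reported here. All columns of values in both tables were mapped to samples.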

Additional observations from a re-analysis of the deposited data

Results flagged for a closer look

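For 18 genes the vavCre change differed between marrow and spleen by an interaction term in limma (adjusted p under 0.05), given here for 17 of them as the marrow log2 change minus the spleen log2 change. Timd4 (-1.93) fell in marrow and rose in spleen. Vcam1 (-1.10) and Ear2 (-3.55) fell in both tissues and more in marrow. Cmbl (-1.70), Dmpk (-2.59) and Fgf1 (-5.49) fell in marrow and were not called in spleen. Cd209f (-2.97), Cd209g (-2.52), Pf4 (-2.05), Stab1 (-2.03), Wfdc17 (-1.39), Sepp1 (-0.77), Cd63 (-1.32), Ms4a7 (-0.89), Cbr2 (-1.73) and Ccl7 (-3.78) rose in both and less in marrow. Gpr34 (2.17) fell in spleen and was not called in marrow. edgeR called all 17. The values of each library are in the account of the spleen comparison, and no explanation was tested.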

How the results depend on the processing

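The marrow count of 1182 ranged from 890 to 1102 with 1 library left out, and was 584 with only the 6 marrow libraries in the fit, which estimates the spread from fewer samples. The spleen count of 835 was 1290 by DESeq2, 546 at an absolute log2 change of at least 1, and 536 to 649 with 1 library left out. The tissue difference, 18 genes, was 93 by DESeq2, 31 by edgeR with TMM and with RLE scaling, 11 with no filter, and 11 to 24 with 1 library left out. The Spic_KO count of 658 was 1694 by DESeq2, 1035 by edgeR with RLE, 425 with the compared groups only, 219 with a replicate block, and 261 to 1972 with 1 library left out. The overlap of 77 was 144 by DESeq2, 21 with the compared groups only, 37 with a replicate block, and 39 to 104 with 1 library left out. Except where a setting itself explains the count, the cause was not tested. Same-numbered marrow libraries did not deviate together (correlations 0.03, -0.00 and -0.04). With 3 libraries per group this cannot exclude that equal numbers pair samples. A replicate block gave 1094 marrow calls. Of 148 named genes 141 were called, and 109 of them under every alternative; none reversed, and Pparg and Spic stayed uncalled. Signs turned for 4 genes with changes near 0. The Cd48 marrow change was -0.0127 by DESeq2, -0.0125 by edgeR RLE and -0.0146 by edgeR TMM, and -0.12 to 0.17 with 1 library left out. The Slc25a5 marrow change was 0.00837 by DESeq2, 0.00840 by edgeR RLE and 0.00635 by edgeR TMM, and -0.094 to 0.15 with 1 library left out. The Fam102b marrow change was -0.18 to 0.13 and the Zc3h15 marrow change -0.19 to 0.18 with 1 library left out. The tissue difference has no fit on the compared groups alone, because it uses every group of its table. Genes with few reads are limited by depth, which was 4.26 to 10.8 M reads per marrow library.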
